A study of Caenorhabditis elegans with 2 samples.

Results

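Nuclear hormone receptor genes were examined as places where the nuclear hormone receptor NHR-237 was found on chromatin. The set holds every protein-coding gene of Caenorhabditis elegans whose symbol begins with nhr-, which gave 269 of 19985 protein-coding genes. Of these, 23 lie on the X chromosome, 167 on chromosome V and 79 on chromosomes I to IV. The rule uses the symbol and no measured value.

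NHR-237 was profiled by chromatin immunoprecipitation and sequencing in whole L4 larvae, both sexes together, of strain OP228. This strain carries the unc-119(ed3) III allele and the insertion wgIs228, from which NHR-237 with GFP and FLAG at its C terminus is stably expressed. No label names the promoter that drives the transgene or the state of the endogenous nhr-237 gene, and whole worms mix all tissues. The series has 2 biological replicates of this 1 group, with no second condition and no untagged strain analysed here.

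Nuclear hormone receptors are transcription factors that combine a zinc-finger DNA-binding domain with a ligand-binding domain, and many of them bind the half-site AGGTCA or close variants of it. Nematodes carry a greatly enlarged family, most of it descended from an ancestor related to the vertebrate receptor HNF4, and most of its members have no known ligand or target. A small number of receptors are conserved from insects or vertebrates and act in molting, developmental timing, neuron fate and sterol signalling.

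Regions are described by their rank in the authors' signal, with rank 1 the strongest. The pooled list holds 26787 regions, including background kept for the irreproducible discovery rate (IDR) procedure, which is designed to keep regions ranked alike in both replicates. The IDR peaks are exactly the strongest 0.885% of the pooled regions, with signals of 31.0 to 369 on the authors' scale. Each replicate list holds 30000 regions. A q of 0.05 or less was reached by 813 pooled regions, so presence in the pooled list alone says little about binding. A region was given to a gene when its summit lay from 2000 bp upstream of the gene start to the gene end, and this stretch is called the gene's window.

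NHR-237 regions of the highest confidence were found at 3 receptor genes, nhr-3, nhr-14 and nhr-1, and all 3 lie on the X chromosome. The sequences under their summits are shown because the results turn on them, together with 3 further regions of nhr-14 and the summits of nhr-21 and nhr-40 as examples of the repeats described later. Each is 201 bp long, in ce11 coordinates from the RefSeq genome, and is written 5′ to 3′ on the strand of the gene. Capitals mark, on either strand, the repeat GAGAGA, the half-site core GGTCA, the half-site variant AAGTCA, the letters CTGCGTC and the alternating repeat GCGCGC. The windows are chrX:14560343-14560543 on the plus strand for nhr-3, chrX:8475057-8475257 on the minus strand for the strongest region of nhr-14, and chrX:17513598-17513798 on the plus strand for nhr-1. The other nhr-14 windows, on the minus strand, are chrX:8475261-8475461 in the intron, chrX:8476359-8476559 near the start and chrX:8477472-8477672 farther upstream. The nhr-21 window is chrII:7337632-7337832 and the nhr-40 window chrX:2598842-2599042, both on the plus strand.
nhr-3 intron: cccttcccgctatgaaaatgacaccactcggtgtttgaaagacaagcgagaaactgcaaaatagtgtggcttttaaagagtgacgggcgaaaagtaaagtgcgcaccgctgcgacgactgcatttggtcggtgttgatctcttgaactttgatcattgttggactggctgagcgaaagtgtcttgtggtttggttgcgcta
nhr-14 intron, strongest: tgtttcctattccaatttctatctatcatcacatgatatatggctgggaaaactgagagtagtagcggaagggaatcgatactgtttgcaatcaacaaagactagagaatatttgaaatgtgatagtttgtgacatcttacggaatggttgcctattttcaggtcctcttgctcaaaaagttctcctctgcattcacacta
nhr-14 intron, second summit: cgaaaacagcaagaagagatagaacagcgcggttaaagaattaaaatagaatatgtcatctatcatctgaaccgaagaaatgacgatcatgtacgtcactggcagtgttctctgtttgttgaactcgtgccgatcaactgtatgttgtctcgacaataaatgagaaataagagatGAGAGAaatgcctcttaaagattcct
nhr-14 near the start: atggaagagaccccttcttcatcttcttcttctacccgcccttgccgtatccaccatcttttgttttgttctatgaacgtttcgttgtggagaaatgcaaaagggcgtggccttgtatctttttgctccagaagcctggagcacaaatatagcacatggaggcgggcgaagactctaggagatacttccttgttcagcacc
nhr-14 farther upstream: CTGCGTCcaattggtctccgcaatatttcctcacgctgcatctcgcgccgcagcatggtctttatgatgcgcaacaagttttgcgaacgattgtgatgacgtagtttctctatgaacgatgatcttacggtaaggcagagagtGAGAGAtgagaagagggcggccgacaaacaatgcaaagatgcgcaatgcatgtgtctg
nhr-1 upstream: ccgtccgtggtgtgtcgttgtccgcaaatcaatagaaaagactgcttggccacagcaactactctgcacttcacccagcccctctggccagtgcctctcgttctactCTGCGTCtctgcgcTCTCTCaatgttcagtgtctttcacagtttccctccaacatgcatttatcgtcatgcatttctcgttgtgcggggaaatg
nhr-21 upstream: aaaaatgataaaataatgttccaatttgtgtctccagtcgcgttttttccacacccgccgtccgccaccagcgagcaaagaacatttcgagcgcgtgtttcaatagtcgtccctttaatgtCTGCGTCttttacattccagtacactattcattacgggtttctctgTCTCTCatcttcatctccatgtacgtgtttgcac
nhr-40 intron: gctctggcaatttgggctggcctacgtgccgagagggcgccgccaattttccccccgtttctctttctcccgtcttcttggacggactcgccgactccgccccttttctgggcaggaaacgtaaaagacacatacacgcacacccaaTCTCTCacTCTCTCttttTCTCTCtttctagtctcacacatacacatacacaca
The strongest windows of nhr-3 and nhr-14 hold none of the 5 marked motifs. The nhr-1, nhr-21 and farther upstream nhr-14 windows each hold both CTGCGTC and the GAGAGA repeat, and the nhr-40 window holds the repeat 3 times.

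The strongest region of the family lay at nhr-3 (WBGene00003602, X, 14558504 to 14561432, plus strand). It spans 14560273 to 14560612, with its summit 1939 bp into the gene, in an intron. It ranked 58th in the pooled list with a signal of 66.3 on the authors' scale, 45th in replicate 1 with a signal of 51.0 and 151st in replicate 2 with a signal of 16.1. The gene was thus reached by the strongest regions of each replicate, taken in the same number as the IDR peaks, the only member of the family of which that holds. A second region 955 bp upstream of the start ranked 872nd in the pooled list, and its counterpart in replicate 2, 971 bp upstream, ranked 276th. In replicate 1 no region of the upstream stretch ranked higher than 7760th.

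The nhr gene with the most strong regions was nhr-14 (WBGene00003613, X, 8473722 to 8476178, minus strand), whose product has been linked in worms to intestinal iron handling and immunity. All 5 pooled regions of its 4457 bp window were within the pooled top 1000. The IDR peak, at 8474987 to 8475326 in an intron, had its summit 1021 bp from the start, rank 125 and signal 41.1. The others were at rank 412 with the summit 1394 bp upstream, rank 463 in an intron 817 bp from the start, rank 550 at 281 bp upstream, and rank 780 in the 3′ UTR at 2004 bp. The regions of ranks 125 and 463 overlap in part, so the 5 are not all separate sites. Of the 2731 protein-coding genes on X, nhr-14 was the only one with 4 or more regions in the top 1000, a share of 0.0366%. Over all 19985 protein-coding genes there were 20 (0.1%), 8 of them on I to IV.

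The replicates placed the strongest nhr-14 signal at different sites, in an intron in replicate 1 and upstream of the start in replicate 2. In replicate 1 the intron region ranked 93rd with a signal of 33.4, and the region near the start, 267 bp upstream, ranked 10002nd. In replicate 2 the region near the start, 263 bp upstream, was the strongest of the gene, with rank 339 and a signal of 12.6. The replicate 2 region that overlaps the IDR peak, with its summit at 821 bp, ranked 4268th with a signal of 6.83. That summit is next to the pooled intron region at 817 bp, of rank 463. No replicate 2 region had its summit near that of the IDR peak, at 1021 bp. The region farther upstream was alike in both, with rank 555 in replicate 1 and rank 526 in replicate 2. The intron peak of nhr-14 was thus high in replicate 1 only, and nhr-14 was not reached by as many of the strongest regions of replicate 2 as there are IDR peaks.

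At nhr-1 (WBGene00003600, X, 17514063 to 17528197, plus strand) the IDR peak lay in front of the gene, at 17513528 to 17513867, with its summit 365 bp upstream of the start. It ranked 127th in the pooled list with a signal of 40.6, 250th in replicate 1 with a signal of 22.0 and 192nd in replicate 2 with a signal of 14.9. The other 8 pooled regions of its window, which covers 16135 bp, were much weaker, the next at rank 1773 in an intron. The maps of 4 receptor genes show these 3 patterns, an intron peak, a run of strong regions across the whole window and a single peak before the start, beside nhr-85, which fell just below the last IDR peak.

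**Figure D1:**
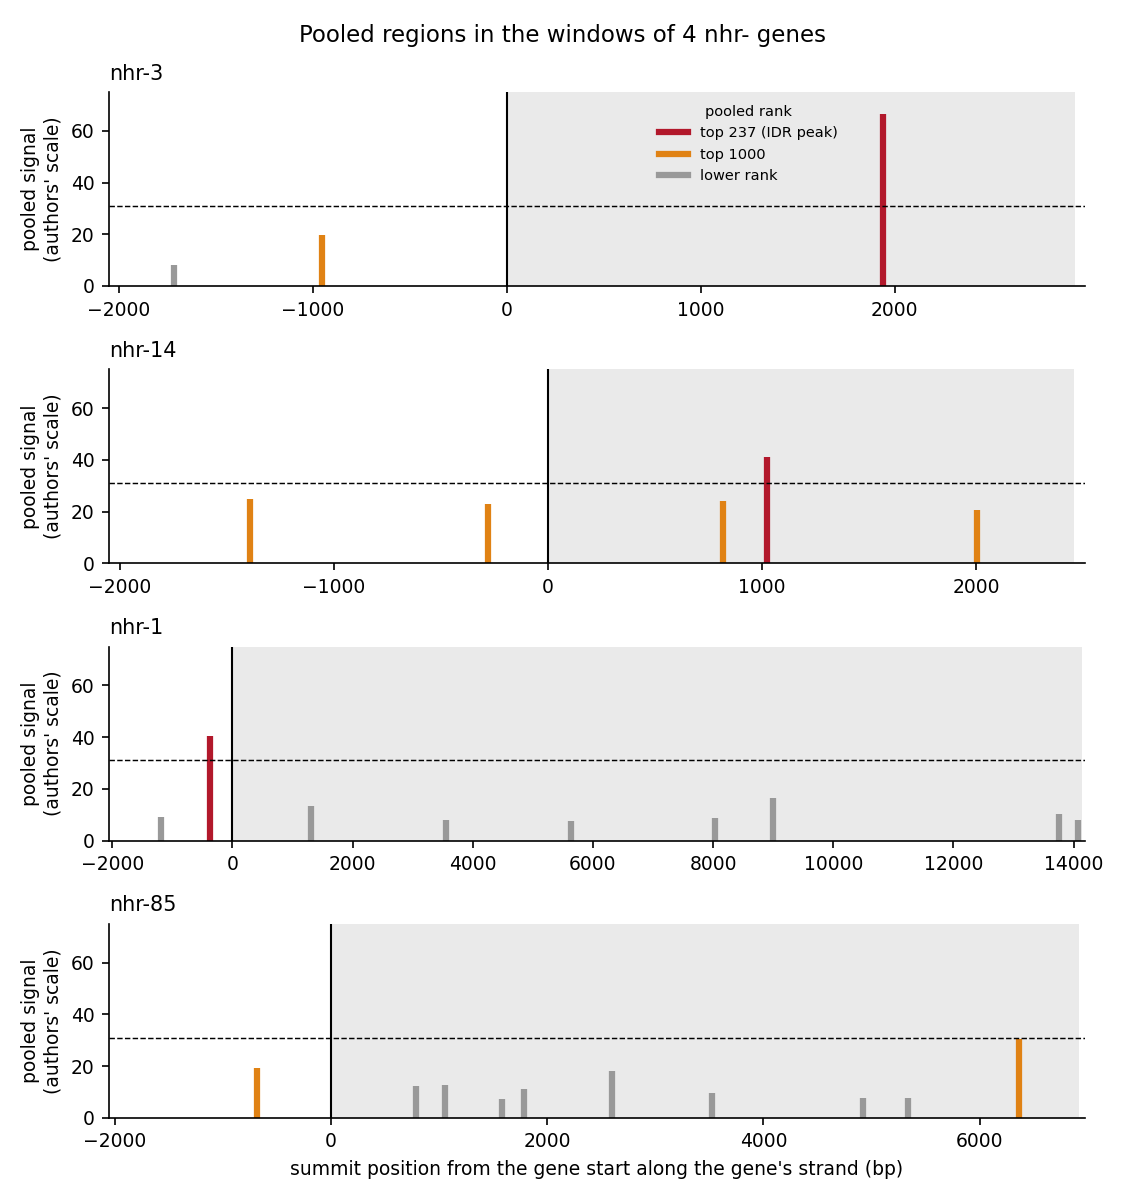
Signal of every pooled region (vertical axis, authors' scale) by summit position from the gene start along the gene's strand (horizontal axis, bp) for nhr-3, nhr-14, nhr-1 and nhr-85. Grey shading is the gene, red bars are IDR peaks, orange bars the rest of the top 1000, grey bars lower ranks, and the dashed line is the lowest signal of an IDR peak, 31.0; nhr-14 has 5 coloured bars and nhr-1 a single one.

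Across the family, an IDR peak was found in the window of 3 of 269 nhr genes (1.12%, 95% interval 0.231 to 3.22%), against 1.32% of all protein-coding genes. The family as a whole was therefore near the background. The X chromosome accounted for all of the count, with 3 of 23 nhr genes (13%, interval 2.78 to 33.6%), against 1.61% of all X genes. On V, 0 of 167 nhr genes had an IDR peak, which allows a share of up to 1.80%, against 0.481% of all V genes. On I to IV, 0 of 79 nhr genes had one, which allows a share of up to 3.80%, against 1.50% of all genes there. The intervals and limits cover counting error only and are no test against the backgrounds, because genes are not replicates. The X share rests on 3 genes. Windows of nhr genes on X were also longer, with a median of 6483 bp, against 4548 bp for all X genes. With as many of the strongest regions of replicate 2 alone, the members reached were nhr-1, nhr-3, nhr-43, nhr-49 and nhr-70, which makes 5, and with those of replicate 1 alone they were nhr-3, nhr-14 and nhr-58. Only nhr-3 was reached in both. The X count was 2 of 23 with either replicate alone, and nhr-43, nhr-49, nhr-70 and nhr-58 are not on X, so the restriction to X did not hold in the single replicates.

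With the wider limit of the pooled top 1000, X again stood highest. A region of that rank lay in the window of 21 of 269 nhr genes (7.81%, interval 4.90 to 11.7%), against 5.20% of all protein-coding genes. On X it was 8 of 23 nhr genes (34.8%, interval 16.4 to 57.3%), against 5.16% of all X genes. On V it was 5 of 167 nhr genes (2.99%), against 3.20% of all V genes, so the largest block of the family was at the background. On I to IV it was 8 of 79 nhr genes (10.1%, interval 4.47 to 19.0%), against 5.94% of all genes there, and the interval covers the background. Counted by promoter alone (1000 bp before the start and 200 bp after it), 10 members had a region in the top 1000 (3.72%), against 2.65% of all protein-coding genes.

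Weak regions were common everywhere. Any pooled region lay in the window of 189 of 269 nhr genes (70.3%), against 66.8% of all protein-coding genes. On X this held for 22 of 23 nhr genes (95.7%), against 68.9% of all X genes, and the exception was nhr-255. On V it held for 111 of 167 nhr genes (66.5%), against 60.0% of all V genes. On I to IV it held for 56 of 79 nhr genes (70.9%), against 69.1% of all genes there. Among these 4 chromosomes, 29 of 33 nhr genes on IV had a pooled region (87.9%), against 66.2% of all genes of IV, and 12 of 23 on I did (52.2%), against 71.4%. In no list at all were 26 members (9.67%), against 11.4% of all protein-coding genes. Of these, 18 lay on V (10.8%), against 15.4% of all V genes, 8 on I to IV (10.1%), against 10.2%, and none on X, against 9.48%.

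The best rank of each member gives the same picture as a level. Over members with a pooled region, the median best rank was 3338 on X, 10504 on V and 8238 on I to IV. Over all protein-coding genes the median was 8511 on X, 10504 on V and 8534 on I to IV. On X the ranks of the nhr genes ran from 58 at nhr-3 to 24157 at nhr-281, and 13 of the 23 had a region within the top 5000, a share of 56.5%, against 22.8% of all X genes.

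**Figure D2:**
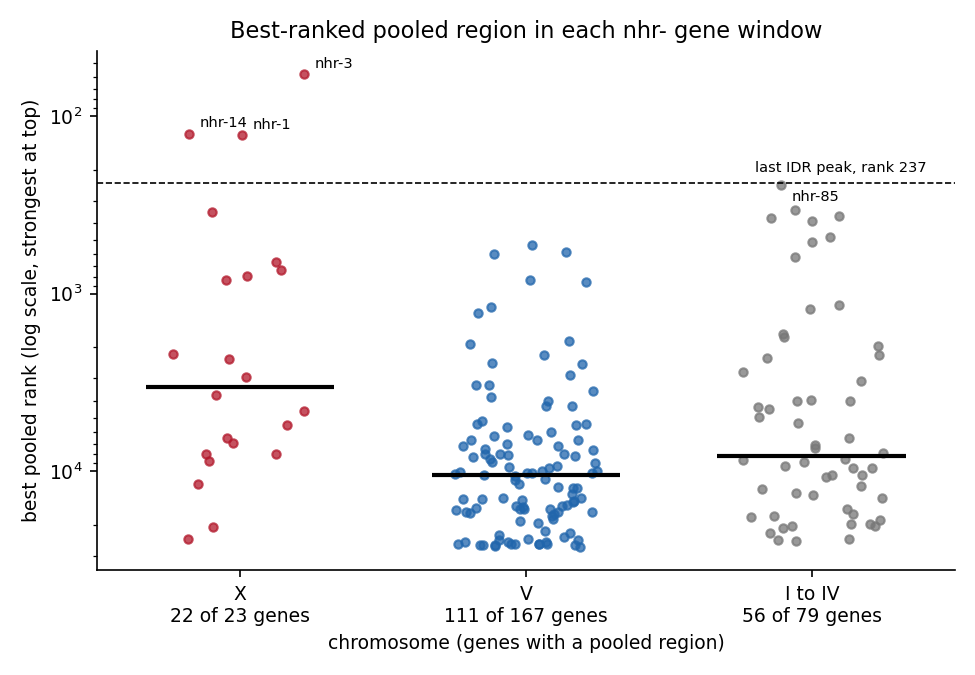
Best pooled rank of each nhr gene with a pooled region (vertical axis, log scale, strongest at the top) by chromosome, with 1 point per gene and a bar at the median. The dashed line marks the rank of the last IDR peak; the medians are 3338 on X, 10504 on V and 8238 on I to IV, and no gene of V is within the top 500.

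**Figure D3:**
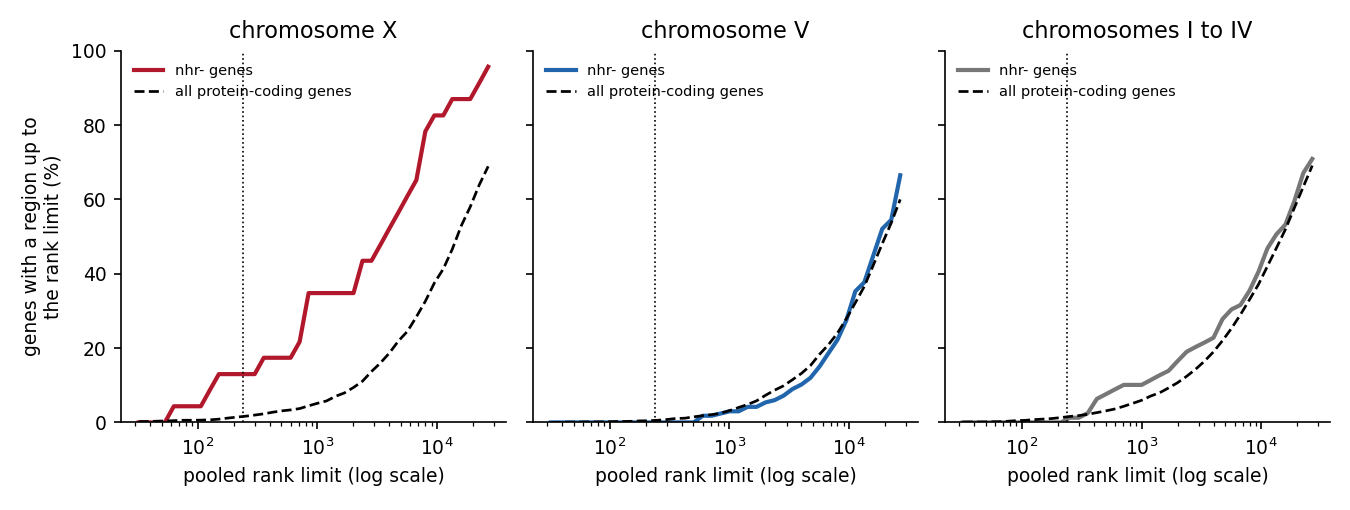
Share of genes with a pooled region up to a rank limit (vertical axis, %; horizontal axis, rank limit on a log scale) for nhr genes as solid lines and all protein-coding genes of the same chromosomes as dashed lines, with a dotted line at the last IDR peak. On X the nhr line is above the dashed line from rank 58 onward and ends at 95.7%, against 68.9%, whereas on V the lines run close together.

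Window length moves with these counts, and its part in them was not tested beyond the size classes given here. The median window was 6483 bp for nhr genes on X, against 4548 bp for all X genes, and 4146 bp for nhr genes on V, against 3754.5 bp for all V genes. Pooled regions lay at 4.04 per 10 kb of window for nhr genes on X, against 2.71 for all X genes, so more regions were found per length as well. For nhr genes on V the value was 2.58 per 10 kb, against 2.46 for all V genes. On I to IV it was 3.92, against 2.87 for all genes there, so the higher density was not particular to X. Among X windows of 4000 to 6000 bp, 2 of 4 nhr genes had a region in the top 1000 (50%), against 4.45% of all X genes of that size. Among those of 6000 to 10000 bp it was 2 of 11 (18.2%), against 6.95%, and among those of 10000 bp and over it was 4 of 4 (100%), against 13.3%. None of the 4 X members with windows under 4000 bp had one, against 2.90% of X genes. Each size class holds few members, so the shares are imprecise.

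In the whole family, the longest windows carried most of the strong regions. A region in the top 1000 lay in 7 of 11 nhr windows of 10000 bp and over (63.6%), against 11.9% of all genes of that size, and in 9 of 46 nhr windows of 6000 to 10000 bp (19.6%), against 7.64%. In the smaller windows the nhr genes had smaller shares than all genes, with 4 of 119 at 4000 to 6000 bp (3.36%), against 4.69%, and 1 of 93 under 4000 bp (1.08%), against 3.76%. The longest member, nhr-27 on X, has a window of 104756 bp with 33 pooled regions, or 3.15 per 10 kb, which is fewer per length than at nhr-14 and nhr-85, with 11.2 each.

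**Figure D4:**
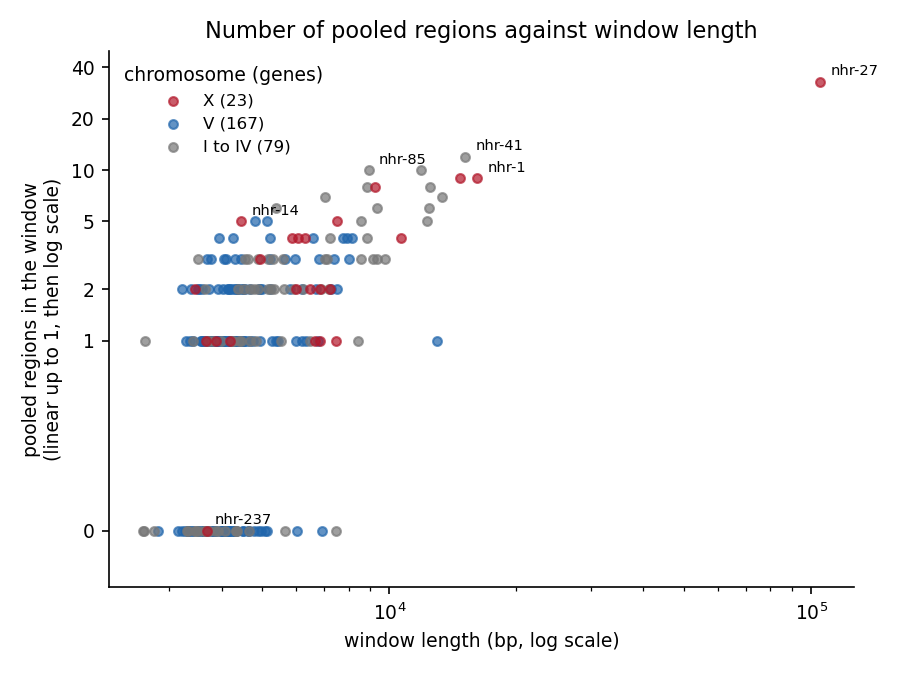
Number of pooled regions (vertical axis, linear to 1 and log above) against window length (horizontal axis, bp, log scale) for the 269 nhr genes, coloured by chromosome. Counts are higher in longer windows, up to 33 in the window of nhr-27, and nhr-237 sits at 0.

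The gene for NHR-237 itself (WBGene00021610, V, 1625189 to 1626820, minus strand) had no region in the pooled list or in either replicate list. Its window covers 3632 bp. No signal at its own gene was therefore seen in these lists, although the lists include background. The nearby members nhr-178, nhr-177, nhr-179, nhr-117, nhr-110 and nhr-238 had no region in any list either. With nhr-237 they span 1603906 to 1629432 on V. The blank is thus not particular to nhr-237, and whether regions could be called in this stretch was not tested.

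The receptors with the strongest regions below the IDR peaks were nhr-85, nhr-23, nhr-137, nhr-21 and nhr-46. The first was nhr-85 (I, 13055201 to 13062122, minus strand), the worm counterpart of E75 and Rev-erb and a regulator of developmental timing. Its best region ranked 243rd with a signal of 30.6, just under the lowest IDR signal of 31.0, and ranked 302nd in replicate 1. In replicate 2 the region with nearly the same summit, 6367 bp from the start against 6365 bp in the pooled list, ranked 1884th, and the gene's best region, with its summit at 6653 bp, ranked 418th. The summit lay in the 3′ UTR of nhr-85 and within the neuropeptide receptor gene npr-14, so this signal cannot be given to either gene alone. A second region 686 bp upstream of nhr-85 ranked 994th.

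The next was nhr-23 on I, counterpart of the insect receptor DHR3 and the vertebrate RORs, which is needed for molting. Its intron region ranked 336th in the pooled list with a signal of 26.6, and 351st in replicate 1, whereas the overlapping region of replicate 2 ranked 23552nd. At nhr-137 on X an intron region ranked 345th in the pooled list, 586th in replicate 1 and 1317th in replicate 2, so it was within the top 2000 of both. At nhr-21 on II a region 1497 bp upstream ranked 366th in the pooled list and 282nd in replicate 1, but its counterpart in replicate 2 ranked 28722nd. At nhr-46 on IV the opposite held, with a 3′ UTR region at rank 373 in the pooled list, 7591 in replicate 1 and 427 in replicate 2. Each of these best regions was thus within the top 1000 of 1 replicate only, where for nhr-85 the replicate 2 region with the nearest summit is taken.

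On X the remaining members of the top 1000 were nhr-48, nhr-120, nhr-40 and nhr-27. The gene nhr-48, a relative of the steroid receptor gene daf-12, had its best region 606 bp upstream, at rank 660 in the pooled list and 279 in replicate 1, with no overlapping region in replicate 2. The intron region of nhr-120 ranked 738th in the pooled list, 1031st in replicate 1 and 3593rd in replicate 2. At nhr-40, which is needed for muscle development and movement, an intron region ranked 796th in the pooled list, 2024th in replicate 1 and 29932nd in replicate 2. The best region of nhr-27 ranked 832nd, with its summit in an intron 12628 bp from the start and also inside the overlapping gene gei-3. The nearest gene start was that of abf-6, at 1572 bp. The next X members were nhr-45 at rank 2195 and nhr-28 at rank 2340.

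On V the 5 members in the top 1000 had their summits upstream of the start, and none of these regions was in the top 1000 of both replicates. They were nhr-142 at rank 529, nhr-58 at rank 583, nhr-47 at rank 594, nhr-70 at rank 834 and nhr-213 at rank 859. The region of nhr-58, 51 bp upstream, ranked 204th in replicate 1 and 6854th in replicate 2. The region of nhr-142, 197 bp upstream, ranked 321st in replicate 1 and 9301st in replicate 2. In contrast, the region of nhr-70, 1889 bp upstream, ranked 21996th in replicate 1 and 217th in replicate 2. The summit of nhr-213 was nearer to the start of the chemoreceptor gene str-60 than to its own.

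On I to IV the other members in the top 1000 were nhr-62, nhr-19, nhr-34 and nhr-49, at ranks 391, 481, 509 and 621. Next came nhr-31, which acts in excretory cell growth, at rank 1156 and nhr-43 at rank 1220. The best region of nhr-43 in replicate 2 ranked 187th, and that in replicate 1 ranked 1325th.

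By role, the 11 receptors on the list of those conserved in other animals all had a pooled region, against 66.8% of all protein-coding genes. Their median best rank was 6242, against 8900 over all protein-coding genes with a region. Except for nhr-111, their windows run from 5228 to 15139 bp. Of all genes with windows of 6000 to 10000 bp, 84.9% had a pooled region and 7.64% one in the top 1000. Of the 11, 3 had a region in the top 1000, against 5.20% of all genes, and none had an IDR peak, against 1.32%. The list holds only nhr- symbols, and conserved receptors with other symbols are given in a list of their own. The 3 were nhr-85, nhr-23 and nhr-48. Of the others, nhr-41, related to the vertebrate testicular receptors, ranked 3101st, nhr-6, related to the NR4A receptors, 8650th, and nhr-25, related to Ftz-F1 and SF-1, 20737th. Among the 4 receptors of molting and timing, the values thus ran from 243 at nhr-85 and 336 at nhr-23 to 13646 at nhr-67, related to tailless, and 20737 at nhr-25, so these receptors were spread over most of the list.

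The 7 receptors of lipid metabolism all had a pooled region, against 66.8% of all genes, with a median best rank of 4341, and 2 had one in the top 1000, against 5.20%. Except for nhr-80, their windows run from 6343 to 12272 bp, and 84.9% of all genes with windows of 6000 to 10000 bp had a pooled region. Among them, nhr-49, the HNF4-like regulator of fatty acid desaturation and oxidation, had a region 249 bp upstream at rank 621, which ranked 3156th in replicate 1 and 216th in replicate 2. The gene nhr-62, which acts in the response to dietary restriction, had an intron region at rank 391, with ranks 585 and 1686 in replicates 1 and 2. The gene nhr-80, whose product works with NHR-49 on desaturase genes, was at rank 24337. Of the 4 genes listed as targets of NHR-49 and NHR-80, all had a pooled region, against 66.8% of all genes. None was in the top 1000, against 5.20%, the best being the desaturase gene fat-6 at rank 1401. A list of 4 genes is too small to tell either count from the background.

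The receptors of propionate and vitamin B12 metabolism and those of detoxification and stress had no region in the top 1000, against 5.20% of all genes. Of the first 3, nhr-10 was best at rank 1756, 469 in replicate 1 and 29715 in replicate 2, nhr-114 followed at 3264, and nhr-68 had no pooled region. Of the 4 in the second list, nhr-57, a gene induced in hypoxia, was best at rank 2218, with 451 in replicate 1 and 3771 in replicate 2.

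Receptors whose symbols do not begin with nhr- and partners of the family were set beside the members. The list of 5 such receptors holds 1 with an IDR peak, against 1.32% of all protein-coding genes. It was daf-12, the receptor for the dafachronic acid hormones that decides between dauer and reproductive growth. Its intron region, 1716 bp from the start on X, ranked 143rd in the pooled list with a signal of 38.0, and its best ranks were 118 in replicate 1 and 341 in replicate 2, in a window of 32968 bp with 16 pooled regions. The gene odr-7, which sets the fate of an olfactory neuron, was best at rank 4553, and fax-1, sex-1 and unc-55 had no pooled region. Of the 7 genes of hormone synthesis and sterol transport, 6 had a pooled region, against 66.8% of all protein-coding genes. Only daf-36, which encodes the first enzyme of dafachronic acid synthesis, was in the top 1000, at rank 869, against 5.20% of all genes.

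Coregulators of nuclear receptors were listed as well. Of the 4 coregulator and chaperone genes listed, 3 were found under their symbols and 2 had an IDR peak. The gene cbp-1, for the CBP/p300 acetyltransferase, had its peak 869 bp upstream at rank 147 with a signal of 37.6, and its best ranks were 914 in replicate 1 and 72 in replicate 2. The gene din-1, for the corepressor that binds DAF-12, had its peak 765 bp upstream at rank 209 with a signal of 32.8, with best ranks of 247 in replicate 1 and 128 in replicate 2. The mediator subunit gene mdt-15, a partner of NHR-49, was at rank 1192. The windows of cbp-1 and din-1 are long, at 10317 and 20840 bp, and that of din-1 holds 16 pooled regions. Of all genes with windows of 10000 bp and over, 2.91% had an IDR peak. These lists are too small for their shares to be set against this value or the 1.32% of all genes.

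The replicates were compared over the 160 members with a region in both lists. Spearman's rho of the best ranks was 0.17 and Pearson's r of log10 ranks 0.363, against 0.241 and 0.406 over 11020 protein-coding genes. On X rho was 0.517 and r 0.672 over 20 members, on V rho was -0.011 and r 0.0218 over 84 members, and on I to IV rho was 0.227 and r 0.311 over 56 members. These are correlations across genes, which are not independent replicates, and both ranks of a gene share its window length and base composition. The correlation of nhr genes was highest on X and close to 0 on V, whereas over all protein-coding genes rho was 0.261 on X, 0.212 on V and 0.24 on I to IV.

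The best rank was within the top 1000 in each replicate, not always through the same region, for 5 of 269 nhr genes (1.86%). Counted in the same way, this held for 1.81% of all protein-coding genes. On X these were nhr-3, nhr-14, nhr-1 and nhr-27, or 4 of 23 nhr genes (17.4%), against 2.05% of all X genes. On V there was none of 167, against 0.981% of all V genes, and on I to IV only nhr-85, 1 of 79 (1.27%), against 2.00% of all genes there. The best regions of nhr-27 in the replicates were not the same region, since its pooled region had no counterpart in replicate 2. Of the 21 best regions in the pooled top 1000, 13 were in the top 1000 of replicate 1, 6 in that of replicate 2 and 3 in both, taking the strongest replicate region that overlaps by 1 bp or more. The 3 were those of nhr-3, nhr-1 and nhr-85, the last through the region at 6653 bp.

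**Figure D5:**
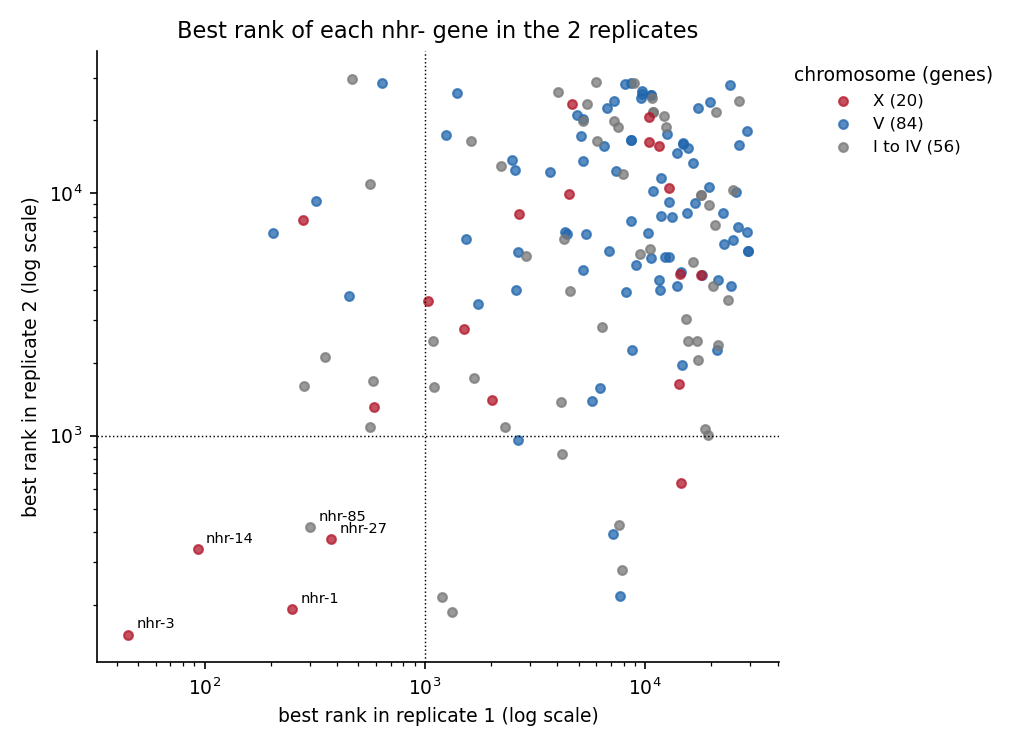
Best rank in replicate 2 (vertical axis, log scale) against best rank in replicate 1 (horizontal axis, log scale) for the 160 nhr genes with a region in both lists, coloured by chromosome, with dotted lines at rank 1000. The 5 named genes are within the top 1000 of both, 4 of them on X, and the points of V are spread over the upper right with no trend.

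The position of the best region differed between chromosomes. On X, 10 of the 22 best regions had their summit in an intron (45.5%), against 27.7% for all X genes, and 8 lay upstream (36.4%), against 48.6%. The upstream stretch is 2000 bp in every window, and nhr windows on X were longer, with a median of 6483 bp, against 4548 bp. The part of gene length in these shares was not tested. On I to IV, 18 of 56 were in introns (32.1%), against 25.8% for all genes there, and 25 lay upstream (44.6%), against 50.4%. On V, 53 of 111 lay upstream (47.7%), against 53.3% for all V genes, 27 in coding exons (24.3%), against 19.5%, and 23 in introns (20.7%), against 21.1%. Of the 21 in the top 1000, 10 were in introns, 9 upstream and 2 in 3′ UTRs. The nearest gene start was the member's own for 137 of 189 best regions (72.5%), and for 15 of the 21 in the top 1000. In 12 cases 1 region was the best of a pair of neighbouring members, 10 of them on V, such as nhr-128 and nhr-56 at rank 6651, so the 189 members share 177 regions.

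Motifs were counted as given letters on both strands in the 201 bp around each summit, beside pooled regions of the same rank. The GAGAGA repeat was in 13 of the 21 best regions in the top 1000 (61.9%), against 33.6% of the pooled top 1000 and 13.4% of all pooled regions. The letters CTGCGTC were in 5 of 21 (23.8%), against 11.7% and 2.67%. TGATAA was also in 5 of 21 (23.8%), against 13.4% and 16.6%, and TTTCAG in 3 of 21 (14.3%), against 21.8% and 35.2%. The repeat GCGCGC was in none, against 9.01% and 1.97%. The receptor half-site AGGTCA was in 0 of 21, which allows a share of up to 14.3%, against 5.91% of the pooled top 1000 and 5.12% of all pooled regions. Its core GGTCA, which AGGTCA contains, was in 3 of 21 (14.3%), against 19.9% and 17.1%, and the variant AAGTCA was in none, against 7.21% and 8.77%. Over the 177 best regions of all members, GAGAGA was in 19.8% and AGGTCA in 4.52%. A match of letters is not a binding site, and nothing about the factor follows from a missing one.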

How the data were processed

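ChIP-seq lists of NHR-237-bound regions in whole L4 worms were analysed in ce11 coordinates (WBcel235), with Ensembl release 115 gene models and the RefSeq genome sequence of the same assembly. The 2 samples, which the labels call biological replicates, formed 1 group. Per the file headers of the text deposited with each sample, the pooled list came from both alignments, and the IDR list from the pooled list and both replicate lists. The deposited signal (narrowPeak column 7) is the authors' own value for each region. No source used here names its scale, so it served only to rank regions within a list, highest first. The deposited −log10 q values were read only to count regions with q of 0.05 or less. The peak caller and its use of a control, the aligner and the threshold of the IDR procedure are items not given in the sources used here. Read counts are in none of the lists, so the depth is unknown. The ce10 lists were not used here.

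Members were the protein-coding genes with the symbol prefix nhr-. A region counted for a gene when its summit lay between 2000 bp upstream of the gene start and the gene end. Genes were also compared by promoter alone, by gene body alone, by nearest start, with other rank limits and without each replicate. Intervals are exact 95% Clopper-Pearson intervals over genes; the limit for a count of 0 is 3 counts of the total. Both cover counting error only, and neighbouring genes can share a region. No test was run, because there was no second condition and genes are not replicates. Values are named for members with an IDR peak, for the 10 members of best pooled rank on X, the 5 on V and the 10 elsewhere, for the 5 best without an IDR peak, for nhr-237 and for the leading genes of each role list. Other genes are named because their counts were small, after their values were seen. The members and lists were chosen with earlier results of these data known. Counting was checked on 200 made-up genes with known regions, and all 200 were recovered. Python 3.11.15, numpy 2.4.6, pandas 2.3.3, scipy 1.17.1 and matplotlib 3.10.9 were used.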

Additional observations from a re-analysis of the deposited data

How the results depend on the processing

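Counts were recomputed under other settings. The 3 members with an IDR peak became 1 with the promoter alone (nhr-1) and 1 with the IDR peaks at or above the median signal (nhr-3), in total and on X alike. With as many of the strongest regions of a single replicate in their place, the count ran from 3 to 5 in total, and from 0 to 2 on I to IV, where nhr-49 and nhr-43 entered from replicate 2. The other 8 of 11 alternatives for the total kept the count within 1.5 times. Of these 8, counting nhr- pseudogenes could not change it, because there were 0. Leaving out windows over 20000 bp could not either, because nhr-27 has no IDR peak. With replicate 1 alone the count stayed at 3, but nhr-58 took the place of nhr-1. Across all settings, nhr-3 was lost only with the promoter alone. The 189 members with a pooled region became 90 with the promoter alone (33.5%), against 33% of all protein-coding genes. The 21 members in the top 1000 became 10 with the promoter alone (3.72%), against 2.65% of all protein-coding genes. They became 12 with the gene body alone (4.46%), against 1.91%, and 13 with the nearest start (4.83%), against 3.17%. In the top 500 there were 10 (3.72%), against 2.75%. The 5 members on V became 0 with the gene body alone. In the top 500 there were 0 on V, against 1.5% of all V genes, and in the top 2000 there were 9 (5.39%), against 7.27%. Leaving out windows over 20000 bp, a setting chosen after seeing the data, gave 3 and 20. No paired analysis was possible because there was 1 group. The unknown depth and the unknown use of a control limit all values; signal that any ChIP would give at these regions was not tested.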

Other observations

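Along chromosome V, the outer and middle parts of the chromosome differed for nhr genes in counts of weak regions. In the outer parts 89 of 126 nhr genes had a pooled region (70.6%), against 60.1% of all genes there, and in the middle part 22 of 41 did (53.7%), against 59.9%. A region in the top 1000 lay in 5 of the 126 outer nhr windows (3.97%), against 2.53% of all genes there, and in 0 of the 41 middle ones, against 4.39%. The density of pooled regions was 2.81 per 10 kb of nhr window in the outer parts and 1.77 in the middle, against 2.45 and 2.49 for all genes. On V as a whole 66.5% of nhr genes had a pooled region and 2.99% one in the top 1000, against 48.4% and 0.562% of the 890 chemoreceptor genes, another large family of that chromosome.

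The ceh homeobox genes, a family of other transcription factors, had no IDR peak in 63 genes, which allows a share of up to 4.76%. On X, 22 of 23 nhr genes had a pooled region and 8 had one in the top 1000, against 9 and 0 of 18 ceh genes. For all X genes the shares were 68.9% and 5.16%, and the ceh share with a pooled region was 50%. The median X window was 6483 bp for nhr genes and 4644.5 bp for ceh genes. On I to IV the order was reversed for any pooled region, with 70.9% of 79 nhr genes and 78.8% of 33 ceh genes. In the top 1000 there, it was 10.1% and 6.06%. The median GC content was 40.8% in the 21 best nhr regions of the top 1000 and 36.8% in all 177, against 41.3% in the pooled top 1000 and 35.3% in all pooled regions.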
